A study of Homo sapiens with 16 samples.

Results

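The 10 genes described here carry glucose into the cell and through glycolysis to lactate: SLC2A1, SLC2A3, HK2, PFKP, GPI, ALDOA, ENO1, PGK1, LDHA and PKM. The list is by gene name and was drawn up with earlier results of these data known, so it is not an independent sample of genes. Each name matched 1 of the 57500 genes of the count and TPM tables. Glucose enters through facilitative transporters of the SLC2A family, is trapped by phosphorylation, split into triose phosphates and oxidised to pyruvate. Lactate dehydrogenase then reduces pyruvate to lactate, which regenerates the NAD+ that glycolysis needs. Proliferating cultured cells run this pathway at a high rate, and several of its genes are known targets of hypoxia-inducible factors and of MYC.

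The cells were HEK293T, an embryonic kidney line of human origin that carries a viral large T antigen, and every group had received a lentivector. The vector held histone H2A or the mutant H2A(E92K), in which a glutamate is replaced by lysine. Bulk RNA-seq gave 16 libraries, 4 in each of 4 groups. They were H2A cells with DMSO (the control), E92K cells with DMSO, H2A cells with 1 µM JQ1 for 3 h and H2A cells with 2.5 µM pinometostat for 24 h. JQ1 displaces BET bromodomain proteins from acetylated chromatin, and pinometostat inhibits the histone H3 methyltransferase DOT1L. The mutated residue lies in the acidic patch of the nucleosome, and the labels name no deletion of the cells' own H2A genes. How long the DMSO groups were treated is not stated, and 1 set of 4 control libraries serves every comparison with control, so time and compound cannot be told apart. The labels do not say that the 4 libraries of a group came from separate cultures, and p-values may therefore measure technical spread.

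Depth ran from 17779692 to 27599686 counts per library. Mitochondrial transcripts took 3.66% to 4.02% of counts in H2A cells with DMSO. Their share was 16.5% in JQ1 replicate 1, where replicates 2 to 4 had 3.04% to 3.69%. It was 7.45% in E92K replicate 4, where replicates 1 to 3 had 3.77% to 4.95%. Pinometostat replicate 1, at 4.55%, lay within the 4.43% to 5.04% of its group, and it was the lowest of its group for 10 of 10 members in CPM (counts scaled to library size after TMM adjustment) and for 9 in TPM. JQ1 replicate 1 was the lowest of its group for 6 members in CPM and 10 in TPM, and E92K replicate 4 for 7 in CPM and 10 in TPM. These 3 libraries are shown apart below, and results that rest on them are given with and without them. H2A DMSO replicate 4, with 4.02% mitochondrial counts, is not shown apart. It was the lowest of its group for 6 members in CPM and 9 in TPM. Of 7 kidney lineage markers, PAX8 and CDH6 were under 1 TPM in all libraries, and the summed level was 64.8 to 76.5 TPM with DMSO, 24.1 to 33.9 TPM with JQ1 and 46.9 to 53.1 TPM with pinometostat. Neuronal markers summed to 173.6 to 287.6 TPM with DMSO, 265.9 to 296.8 TPM with JQ1 and 123.4 to 180.3 TPM with pinometostat, and NEFH and STMN2 were under 1 TPM in every library. Epithelial markers summed to 66.2 to 80.7 TPM with DMSO, 48.3 to 61.8 TPM with JQ1 and 48.9 to 53.6 TPM with pinometostat, with KRT19 under 1 TPM in every library. With pinometostat 2 of the 4 epithelial markers tested were called lower, CDH1 (-0.60 ± 0.18) and KRT8 (-0.45 ± 0.13), and 1 was positive (0.24). Over all genes 4.58% were called lower there. With JQ1 all 5 kidney lineage markers tested were called lower and 2 of 4 neuronal markers higher, against 10.4% and 7.16% of all genes. In E92K cells the sums were 54.2 to 77.6 TPM (kidney lineage), 178.8 to 261.8 TPM (neuronal) and 65.6 to 71.2 TPM (epithelial). Fibroblast markers summed to 88.1 to 115.9 TPM with DMSO, 89.2 to 111.9 TPM with JQ1 and 56.5 to 100.3 TPM with pinometostat. In E92K cells they summed to 56.9 to 103.6 TPM, and 0 of the 6 were called in each comparison with DMSO controls. All 4 endothelial markers were under 1 TPM throughout. Immune markers summed to at most 5.41 TPM and erythroid markers to at most 2.02 TPM in any library. The part of these marker shifts in the results was not tested.

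The upstream sequences of 4 members are shown, and no result below rests on them. GPI and ENO1 were called lower with pinometostat in the fit of all libraries, and PGK1 and LDHA were not called. The difference between these pairs was not tested. Each is the 250 bases before the first RefSeq start in the table (GRCh38.p14), 5′ to 3′ on the gene's strand. Capitals mark ACGTG or GCGTG on either strand, the core of the hypoxia response element. In LDHA they take in CACGTG, the E-box bound by MYC, which reads as a pair of overlapping matches.
GPI, chr19:34364742-34364991, plus strand: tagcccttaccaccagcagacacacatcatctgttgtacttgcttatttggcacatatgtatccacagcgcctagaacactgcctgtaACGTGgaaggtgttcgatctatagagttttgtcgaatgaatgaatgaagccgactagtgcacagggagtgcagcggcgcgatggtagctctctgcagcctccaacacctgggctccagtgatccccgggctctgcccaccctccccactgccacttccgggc
ENO1, chr1:8878687-8878936, minus strand: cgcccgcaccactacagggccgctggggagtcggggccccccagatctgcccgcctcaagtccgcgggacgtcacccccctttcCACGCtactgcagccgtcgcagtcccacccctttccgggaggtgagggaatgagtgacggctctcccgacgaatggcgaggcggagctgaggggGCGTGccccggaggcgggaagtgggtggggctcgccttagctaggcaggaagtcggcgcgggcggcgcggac
PGK1, chrX:78103998-78104247, plus strand: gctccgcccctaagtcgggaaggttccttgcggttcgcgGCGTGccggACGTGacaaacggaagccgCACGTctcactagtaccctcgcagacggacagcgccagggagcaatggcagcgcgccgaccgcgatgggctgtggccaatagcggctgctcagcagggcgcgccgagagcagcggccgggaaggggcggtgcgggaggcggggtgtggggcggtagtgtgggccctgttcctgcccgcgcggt
LDHA, chr11:18394313-18394562, plus strand: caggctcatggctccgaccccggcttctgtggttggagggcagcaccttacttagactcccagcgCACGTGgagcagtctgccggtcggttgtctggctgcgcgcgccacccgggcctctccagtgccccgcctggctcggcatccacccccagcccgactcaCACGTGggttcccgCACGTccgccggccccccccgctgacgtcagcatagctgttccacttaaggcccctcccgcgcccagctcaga
The core matched 1 time in GPI, 2 times in ENO1, 3 times in PGK1 and 5 times in LDHA. These counts do not order the members by call. PFKP, called lower with pinometostat, had 0, 0, 1 and 3 matches over its listed starts. HK2, not called, had 3 and 6, and the second listed start of LDHA had 1. It occurred in 12 of the 16 promoters listed for 9 members and in 43.2% of all 35116 promoters of the table. CACGTG occurred in 3 of the 16 promoters and in 6.34% of all. Of the 5 members with 1 listed start, SLC2A1 and PKM had no match in this window. SLC2A3 had no entry. A match describes letters only.

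Levels are first compared between genes in TPM, which the authors computed from counts and exonic length, with H2A cells in DMSO as the baseline. ENO1, the enolase that makes phosphoenolpyruvate, was the most abundant member at 2037 ± 144.8 TPM (SD, n = 4). ALDOA, the aldolase that splits fructose bisphosphate, followed at 851.3 ± 101.2 TPM, and LDHA, which makes lactate, at 724.9 ± 42.3 TPM. Single libraries of ALDOA and LDHA overlapped, whereas all ENO1 libraries lay above both. PGK1, the first ATP-yielding kinase of the pathway, stood at 572.0 ± 49 TPM and PKM, the pyruvate kinase of the last step, at 472.7 ± 33.4 TPM, and these ranges overlapped as well. The earlier enzymes were lower: GPI, which isomerises glucose 6-phosphate, at 154.9 ± 18.1 TPM, and PFKP, the platelet-type phosphofructokinase, at 105.6 ± 17.8 TPM. The transporter SLC2A1 (GLUT1) stood at 60.8 ± 9.06 TPM, and HK2, an inducible hexokinase, at 44 ± 9.81 TPM. SLC2A3 (GLUT3), a high-affinity transporter, was the lowest at 13.3 ± 2.43 TPM. For comparison, GAPDH stood at 3014 ± 182.8 TPM and LDHB, the other lactate dehydrogenase subunit, at 1495 ± 84.1 TPM, above LDHA. Levels between genes in TPM depend on the exonic length assigned to each gene, 6210 bases for LDHA. Before division by length LDHA and LDHB were alike, with means of 1400 and 1370 CPM (scaled counts, defined above) over the 16 libraries.

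Together the 10 members held 0.504 ± 0.036% of all TPM with DMSO, from 0.457% to 0.541%. With pinometostat they held 0.340%, 0.377%, 0.384% and 0.419% in replicates 1 to 4, so that every library lay below every control. JQ1 libraries held 0.257%, 0.510%, 0.552% and 0.452%, and all but replicate 1 lay close to the control range. In E92K cells the share was 0.423%, 0.466%, 0.431% and 0.330%, with replicate 4 the lowest. These shares describe libraries: fewer cells of a type and less RNA per cell cannot be told apart in bulk RNA.

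**Figure D1:**
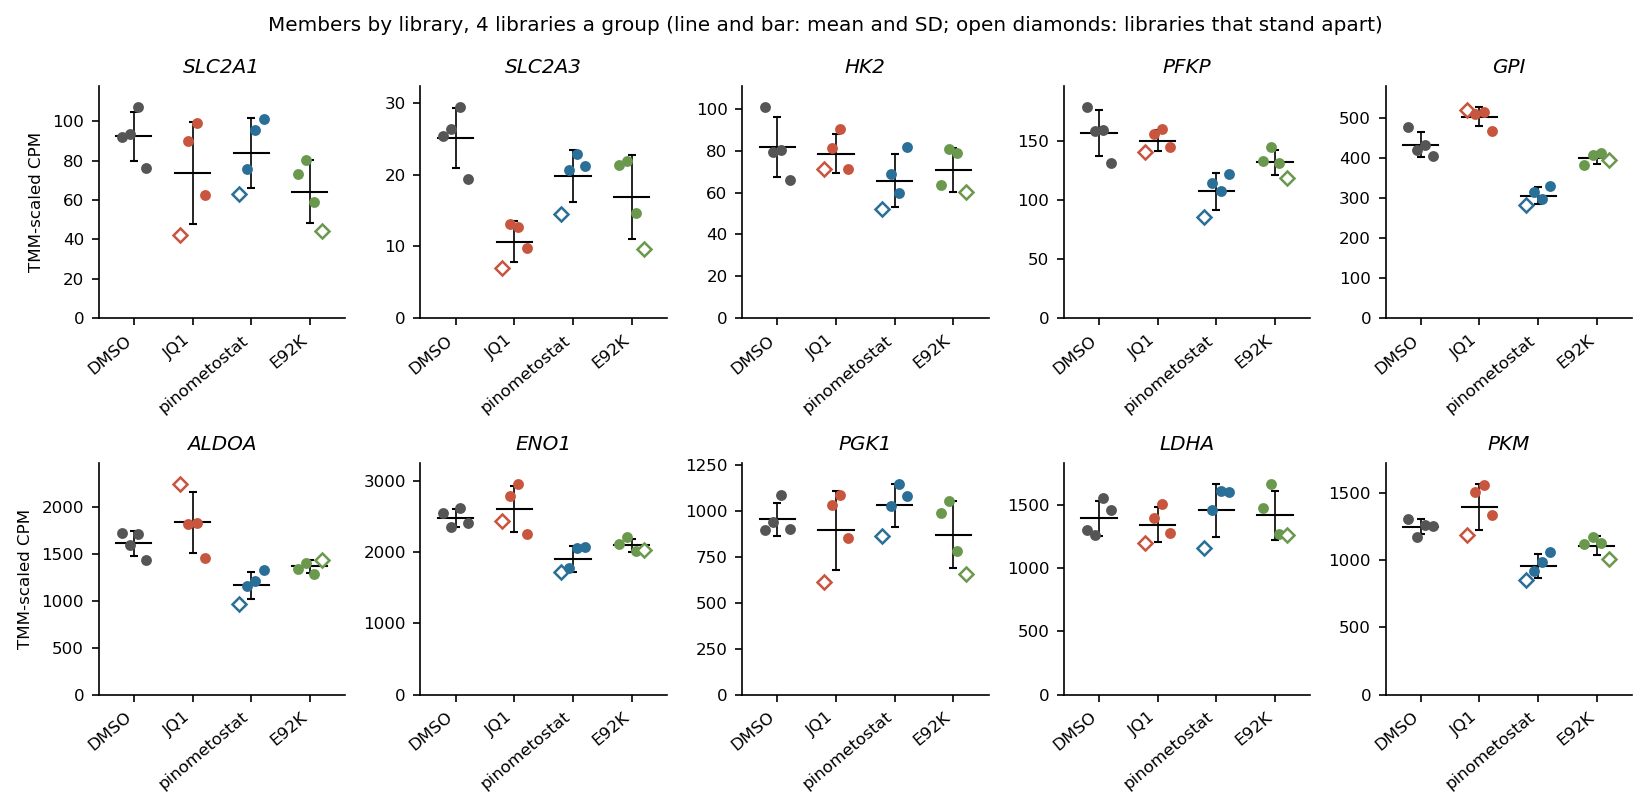
Level of each member in every library, in CPM (counts scaled to library size after TMM adjustment), by group; lines and bars give the mean and SD (n = 4), and open diamonds mark JQ1 replicate 1, pinometostat replicate 1 and E92K replicate 4. SLC2A3 with JQ1, and PFKP, GPI, ALDOA, ENO1 and PKM with pinometostat, lie wholly below the controls.

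The JQ1 comparison asks which members differ after 3 h of BET displacement. SLC2A3 fell, and it was the only member that passed the test. The other 9, from GLUT1 to lactate dehydrogenase, did not pass. Within a gene, levels are given in CPM. SLC2A3, Ensembl gene ENSG00000059804 at chr12:7919230-7936275 on the minus strand in the files' coordinates, stood at 25.4, 26.4, 29.4 and 19.4 CPM in control replicates 1 to 4. With JQ1 it stood at 6.96, 13.1, 12.7 and 9.75 CPM. The groups did not overlap, and JQ1 replicate 1 was the lowest of all. The log2 fold change was -1.23 ± 0.24 (SE), or 0.425 of the control level, with an adjusted p of 0.00149 (edgeR quasi-likelihood test, Benjamini-Hochberg over 17306 genes). Without JQ1 replicate 1 and E92K replicate 4 it was -1.10 ± 0.17 (adjusted p = 4.37e-05). This 1 call among 10 members stands against 17.6% of all genes called, 10.4% lower and 7.16% higher, so the members' share is no larger than the background. Groups that did not overlap, with JQ1 lower, were found in 12.2% of all genes, and 13.8% of all genes were called lower without the 2 libraries. The near-identical copies of SLC2A3, SLC2A14 among them, held 1.37% of the counts of SLC2A3 and its copies together, and how shared reads were assigned is not given.

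SLC2A1 did not follow it in a way that passed. Its JQ1 libraries stood at 42.4, 90.2, 98.9 and 62.4 CPM and its controls at 92.2, 93.4, 107.2 and 76.5 CPM. The 2 groups overlapped, and JQ1 replicate 1 lay far below the rest. The log2 fold change was -0.33 ± 0.23 (adjusted p = 0.36, edgeR) with all libraries and -0.16 ± 0.16 without the 2 libraries high in mitochondrial counts. SLC2A3 made up less of the summed TPM of the pair: 17.8 ± 0.68% with DMSO and 10.6 ± 0.99% with JQ1 (SD, n = 4), and 11.6% in JQ1 replicate 1. An exact permutation test of that share gave p = 0.0286, two-sided, the smallest that 4 libraries against 4 can give, and 0.206 after adjustment over 18 such tests. These share tests were chosen after the values were seen.

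None of the 8 enzymes passed with JQ1. HK2 had a log2 fold change of -0.05 ± 0.15, PFKP of -0.06 ± 0.12, PGK1 of -0.09 ± 0.17 and LDHA of -0.05 ± 0.13. GPI was at 521.9, 510.5, 515.6 and 469.4 CPM with JQ1 and 477.5, 420.3, 433.6 and 404.8 CPM with DMSO, a log2 fold change of 0.22 ± 0.09 (95% interval 0.03 to 0.41). Only 1 JQ1 library of GPI lay below the highest control, and its adjusted p was 0.109 with edgeR and 0.0173 with DESeq2. ALDOA had 0.19 ± 0.13, ENO1 0.07 ± 0.11 and PKM 0.16 ± 0.11, none of them called. Without JQ1 replicate 1, which had ALDOA at 2244 CPM against 1453 to 1821 CPM in the rest of its group, ALDOA was at 0.04 ± 0.11 and PGK1 at 0.02 ± 0.14. The small positive values of GPI, ALDOA, ENO1 and PKM turned negative in limma on log2(TPM + 1), at -0.08 for GPI, -0.12 for ALDOA, -0.23 for ENO1 and -0.14 for PKM. In that scaling the median of all genes moved from 0.04 to -0.21. The median of the 10 members was -0.05 against 0.04 for all genes tested, and -0.34 against -0.21 on the TPM scale.

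Pinometostat, given for 24 h, asks the same of DOT1L inhibition. With all libraries PFKP, GPI, ALDOA, ENO1 and PKM fell, to between 0.684 and 0.767 of control. Without replicate 1 only PFKP and GPI were called. PGK1 and LDHA did not pass the test and had small positive values. Neither transporter passed. The 5 calls among 10 members, all lower, stand against 8.2% of all genes called, 4.58% lower and 3.62% higher. The same 5 members did not overlap between groups, against 13.5% of all genes that lay lower without overlap. The median log2 fold change of the members was -0.36 and that of all genes tested 0.03.

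PFKP (ENSG00000067057, chr10:3066333-3137712, plus strand), which commits sugar to glycolysis, was at 85.2, 114.7, 107.2 and 121.8 CPM with pinometostat and 178.5, 158.1, 159.2 and 131.5 CPM with DMSO. The groups did not overlap, with replicate 1 of pinometostat the lowest. Its log2 fold change was -0.55 ± 0.12 (adjusted p = 0.0131, edgeR), and -0.45 ± 0.12 (adjusted p = 0.047) without that replicate. GPI (ENSG00000105220, chr19:34359480-34402156, plus strand) was at 284.1, 314.8, 296.9 and 331.4 CPM against 477.5, 420.3, 433.6 and 404.8 CPM. Here too all treated libraries lay below all controls, with a narrower spread than for PFKP. Its log2 fold change was -0.50 ± 0.09 (adjusted p = 0.00655, edgeR), and -0.47 ± 0.10 (adjusted p = 0.0298) without replicate 1.

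ALDOA (ENSG00000149925, chr16:30053090-30070457, plus strand) was at 966.5, 1153, 1206 and 1320 CPM with pinometostat and 1717, 1596, 1704 and 1429 CPM with DMSO. Replicate 1 was the lowest and the groups did not overlap. The log2 fold change was -0.47 ± 0.13 (adjusted p = 0.0333, edgeR). ENO1 (ENSG00000074800, chr1:8861002-8879249, minus strand) was at 1727, 1775, 2055 and 2068 CPM against 2556, 2356, 2622 and 2407 CPM, which did not overlap, a log2 fold change of -0.38 ± 0.11 (adjusted p = 0.0389, edgeR). PKM (ENSG00000067225, chr15:72199029-72231822, minus strand) was at 850.3, 922.1, 984.6 and 1060 CPM against 1307, 1171, 1264 and 1253 CPM, again without overlap, a log2 fold change of -0.39 ± 0.11 (adjusted p = 0.036, edgeR). Without pinometostat replicate 1 the sizes changed little and the calls ended: ALDOA -0.40 ± 0.13 (adjusted p = 0.11), ENO1 -0.34 ± 0.12 (adjusted p = 0.12) and PKM -0.34 ± 0.12 (adjusted p = 0.117). In that fit 2 of 10 members and 1.52% of all genes were called lower. Leaving out JQ1 replicate 1 and E92K replicate 4, which are in neither group, gave smaller SEs: the same 5 members were called, with adjusted p from 1.97e-04 to 0.00374, among 14.5% of all genes called lower. Without all 3 of these libraries 5 members were called, among 11.1% of all genes called lower. Leaving out any 1 of the 8 libraries of the comparison in turn kept GPI (adjusted p = 0.00626 to 0.0298, edgeR) and PFKP (0.00754 to 0.0494) called in 8 of 8 fits. ALDOA was called in 2 of these fits, PKM in 2 and ENO1 in 1, with adjusted p up to 0.11, 0.117 and 0.12, and each fell short without control replicate 1 or 3 or pinometostat replicate 1, 2 or 3.

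The remaining members did not pass with pinometostat. HK2 was at 52, 68.7, 60 and 81.6 CPM against 100.9, 79.4, 80.6 and 65.9 CPM, overlapping groups with a log2 fold change of -0.32 ± 0.15 (adjusted p = 0.202, edgeR). SLC2A3 was at 14.5, 20.6, 22.9 and 21.2 CPM, of which replicate 1 lay below the control range and the other three within it, with a log2 fold change of -0.34 ± 0.23. SLC2A1 had -0.14 ± 0.23. PGK1 ran from 866.0 to 1145 CPM against 895.7 to 1088 CPM, with 0.11 ± 0.17 and a 95% interval of -0.25 to 0.47. LDHA ran from 1159 to 1611 CPM against 1259 to 1552 CPM, with 0.07 ± 0.13 and a 95% interval of -0.21 to 0.34. Without replicate 1 the log2 fold change was 0.18 ± 0.19 for PGK1, 0.16 ± 0.13 for LDHA, -0.22 ± 0.16 for HK2, -0.22 ± 0.25 for SLC2A3 and -0.03 ± 0.24 for SLC2A1, none called. For PGK1 and LDHA replicate 1 alone lay below the controls. Whether these members differ in response from the 5 called ones was not tested.

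**Figure D2:**
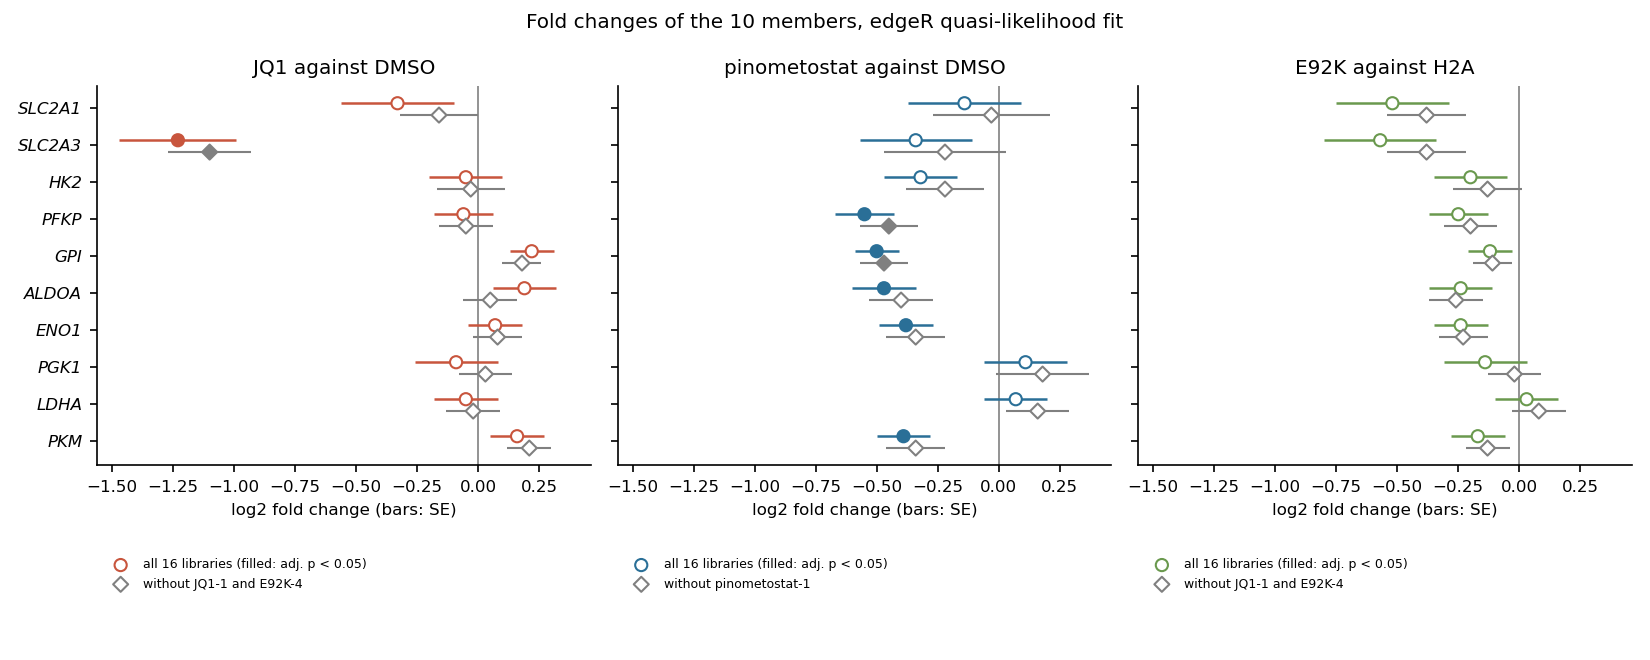
Log2 fold change (x) of each member (rows) in 3 comparisons with H2A cells in DMSO, with SE; circles use all 16 libraries, diamonds leave out the named libraries, and filled symbols have an adjusted p below 0.05. With pinometostat, PFKP and GPI stay filled without replicate 1 (-0.45 and -0.47), and ALDOA, ENO1 and PKM do not.

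Transcript GC content moved with the pinometostat fold change across all genes. The median log2 fold change ran from 0.20 for genes of 40% GC or less to -0.21 for those over 60%. The called members have transcripts of 52.7% (ENO1), 53.1% (GPI), 53.3% (PKM), 54.3% (ALDOA) and 57.5% (PFKP) GC. Of the members not called, PGK1 has 43.3%, LDHA 44.0%, SLC2A3 45.8%, HK2 51.2% and SLC2A1 54.8%. Among the uncalled members, SLC2A1 lay within the GC range of the called ones, and PGK1, LDHA, SLC2A3 and HK2 lay below it. The part of GC content in which members were called was not tested. The median of all genes was -0.05 at 50% to 55% GC, the class of 4 of the called members, and -0.14 at 55% to 60%, the class of PFKP. In a fit with each library's GC trend removed, chosen after seeing the data, GPI kept -0.46 ± 0.08 (adjusted p = 0.0089) and PFKP -0.43 ± 0.11 (adjusted p = 0.0418). ALDOA had -0.41 ± 0.12 (adjusted p = 0.0664), PKM -0.34 ± 0.10 (adjusted p = 0.0733) and ENO1 -0.34 ± 0.11 (adjusted p = 0.0761) there. PGK1 moved to -0.00 ± 0.15 and LDHA to -0.03 ± 0.12, so their small positive sign was lost. In this fit 2.57% of all genes were called lower.

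**Figure D3:**
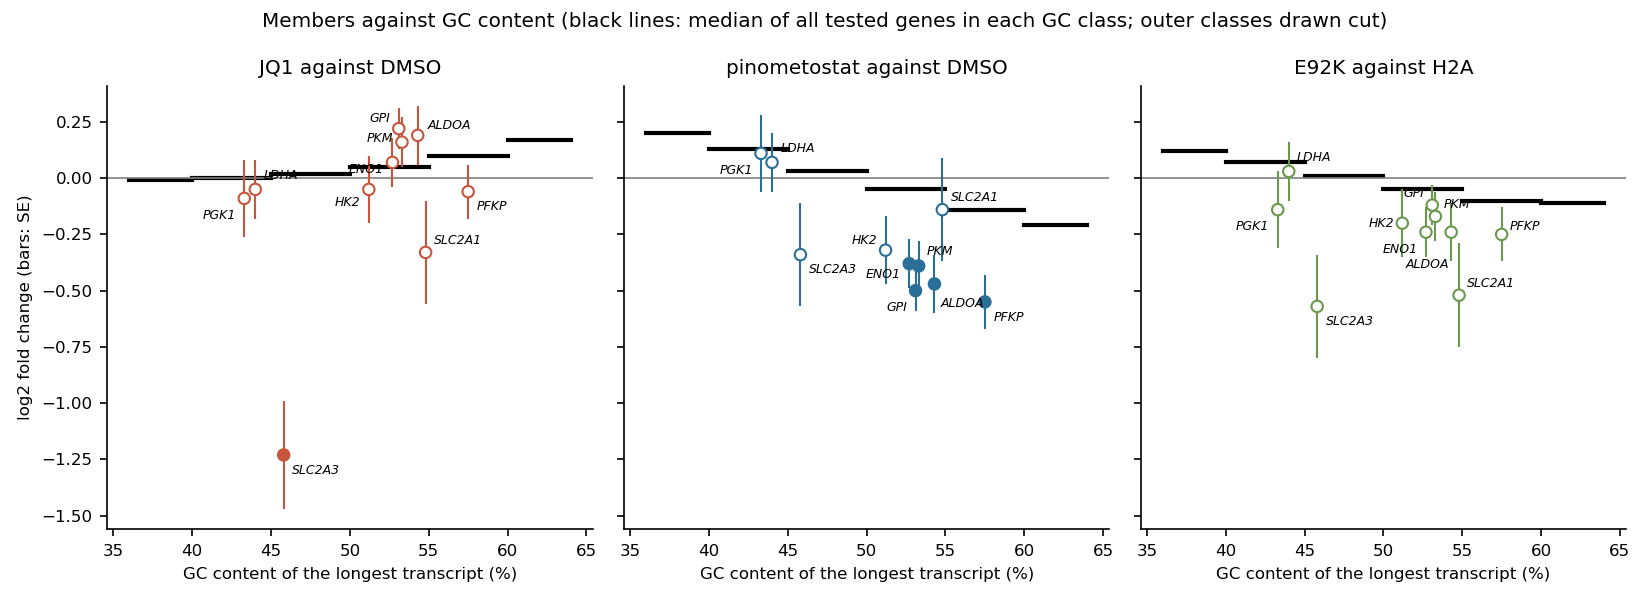
Log2 fold change with SE (y) against GC content of each member's longest transcript in GENCODE 29 (x) in 3 comparisons, filled where called; black lines give the median of all tested genes in 6 classes of GC. With pinometostat the class medians fall from 0.20 to -0.21, PGK1 and LDHA lie near theirs, and the called members lie below.

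E92K cells in DMSO were compared with H2A cells in DMSO. No member passed, 0 of 10, and 0% of all genes were called with edgeR (0 of 17306). At an unadjusted p below 0.05 there were 4 members and 1296 genes, DESeq2 called 4 genes and limma-voom 0, none of them a member. The fold changes of 9 of the 10 members were negative, with a median of -0.22 against 0.00 for all genes. SLC2A3 stood at 21.3, 21.9, 14.7 and 9.57 CPM in E92K cells and SLC2A1 at 73.4, 80.4, 59 and 44.4 CPM. Replicate 4 was the lowest for both, and the E92K libraries overlapped the controls. The log2 fold changes were -0.57 ± 0.23 for SLC2A3 and -0.52 ± 0.23 for SLC2A1 (adjusted p = 0.656 each, edgeR), and without JQ1 replicate 1 and E92K replicate 4 both were -0.38 ± 0.16.

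ENO1 and PKM were the members whose E92K libraries all lay below the controls in CPM, against 3.18% of all genes. ENO1 was at 2118, 2220, 2019 and 2038 CPM against at least 2356 CPM with DMSO, a log2 fold change of -0.24 ± 0.11 (adjusted p = 0.656, edgeR). PKM was at 1121, 1169, 1130 and 1010 CPM against at least 1171 CPM, with -0.17 ± 0.11 (adjusted p = 0.669). For PKM the highest E92K library (1169) and the lowest control (1171) nearly met. ALDOA had -0.24 ± 0.13, PFKP -0.25 ± 0.12, HK2 -0.20 ± 0.15, GPI -0.12 ± 0.09 and PGK1 -0.14 ± 0.17. LDHA alone had a positive value, 0.03 ± 0.13. Without JQ1 replicate 1 and E92K replicate 4, PGK1 was at -0.02 ± 0.11, HK2 at -0.13 ± 0.14 and LDHA at 0.08 ± 0.11. GC classes differed here as well, from a median of 0.12 at the lowest GC to -0.11 at the highest.

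The treated groups were also compared directly in the same fit. JQ1 and pinometostat libraries differed in 6 of 10 members, against 34.2% of all genes (16.8% higher and 17.4% lower with JQ1), and these groups differ in time, 3 h and 24 h, as well as in compound. SLC2A3 was lower with JQ1, by a log2 difference of -0.89 ± 0.24 (adjusted p = 0.00834, edgeR). GPI (0.72 ± 0.09, adjusted p = 1.61e-05), ALDOA (0.66 ± 0.13), PKM (0.55 ± 0.11), PFKP (0.49 ± 0.12) and ENO1 (0.45 ± 0.11) were higher with JQ1. Against DMSO the medians of the GC classes rose with JQ1, from -0.01 at the lowest GC to 0.17 at the highest. With pinometostat they fell, from 0.20 to -0.21. The part of GC content in this direct contrast was not tested. LDHA (-0.12 ± 0.13), PGK1 (-0.20 ± 0.17), SLC2A1 (-0.19 ± 0.23) and HK2 (0.26 ± 0.15) did not pass. E92K and JQ1 libraries differed in 4 members, against 22.9% of all genes (10.9% lower in E92K cells): ALDOA (-0.43 ± 0.13), PKM (-0.33 ± 0.11), GPI (-0.33 ± 0.09) and ENO1 (-0.31 ± 0.11) were lower in E92K cells. SLC2A3 had 0.66 ± 0.24 in that comparison with an adjusted p of 0.0563. Between E92K and pinometostat 0 of 10 members passed, 0.352% of all genes did, and 2 members had an unadjusted p below 0.05. GPI was nearest, with 0.38 ± 0.09 (adjusted p = 0.0624, edgeR).

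Isoenzyme shares show whether a member moved against its relatives. With pinometostat PFKP took 40.9%, 44.1%, 46% and 44.7% of the summed TPM of the 3 phosphofructokinase genes, and 47.9%, 48%, 47.8% and 46.9% with DMSO. The groups did not overlap, and the exact permutation p was 0.0286 (0.206 adjusted over the 18 tests). With JQ1 PFKP took 50.2%, 42.3%, 42.4% and 41.9% (exact permutation p = 0.143, adjusted 0.367). JQ1 replicates 2 to 4 thus lay below every control, and JQ1 replicate 1 lay above them. HK2 took 45.5 ± 2.6% of HK1 and HK2 with pinometostat and 41.3 ± 1.1% with DMSO (exact permutation p = 0.0571, adjusted 0.206). ENO1 held 98.5 ± 0.22% of the enolase TPM and ALDOA 95.3 ± 0.39% of ALDOA and ALDOC with DMSO. LDHA held 32.7 ± 1.4% of LDHA and LDHB with DMSO, 32.4 ± 3.1% with JQ1, 33.8 ± 2.7% with pinometostat and 33.2 ± 2% in E92K cells. The size of such a TPM share depends on the exonic lengths of the genes compared. None of the 18 share tests passed after adjustment, and the design allows no p below 0.0286 for a single share.

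**Figure D4:**
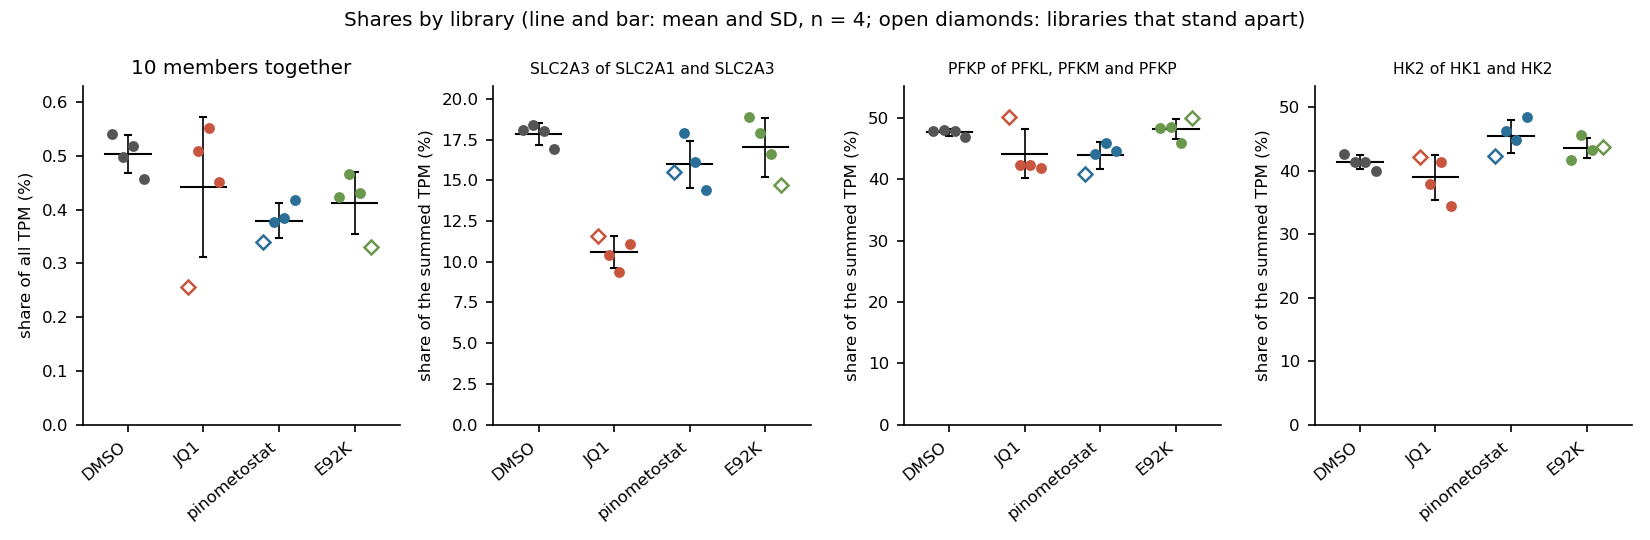
Share of all TPM held by the 10 members, and share of SLC2A3, PFKP and HK2 in the summed TPM of their relatives, by library; lines and bars give mean and SD (n = 4), and open diamonds mark the 3 libraries shown apart. SLC2A3 took 9.34% to 11.6% of its pair with JQ1 and 16.9% to 18.4% with DMSO.

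Across the 16 libraries the members fell into a pair of sets by the likeness of their log2 CPM. SLC2A1, SLC2A3, PGK1 and LDHA correlated with each other at Pearson r from 0.56 to 0.92 (6 pairs). HK2, PFKP, GPI, ALDOA, ENO1 and PKM did so at 0.61 to 0.94 (15 pairs), and the 24 pairs between the sets had a median r of 0.13. SLC2A1 and PGK1 were the closest pair of the first set, at 0.92, and both were lowest in JQ1 replicate 1 and E92K replicate 4 within their groups. PGK1 stood there at 611.2 and 655.9 CPM. Without these 2 libraries the first set correlated at 0.38 to 0.83 and the second at 0.69 to 0.96, while pairs between the sets reached 0.58 (SLC2A1 and ALDOA), above the lowest pairs of the first set. On deviations from the group means the 45 pairs had a median r of 0.62 and ran from -0.08 to 0.96, with 44 of them positive. The points share library, depth, GC trend and group, the sets were drawn after the values were seen, and no test was made. The genes most like the mean of the 10 members were FXYD6 (r = 0.909), ADA (0.904), LOXL2 (0.893), TBC1D1 (0.882) and PCIF1 (0.877).

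**Figure D5:**
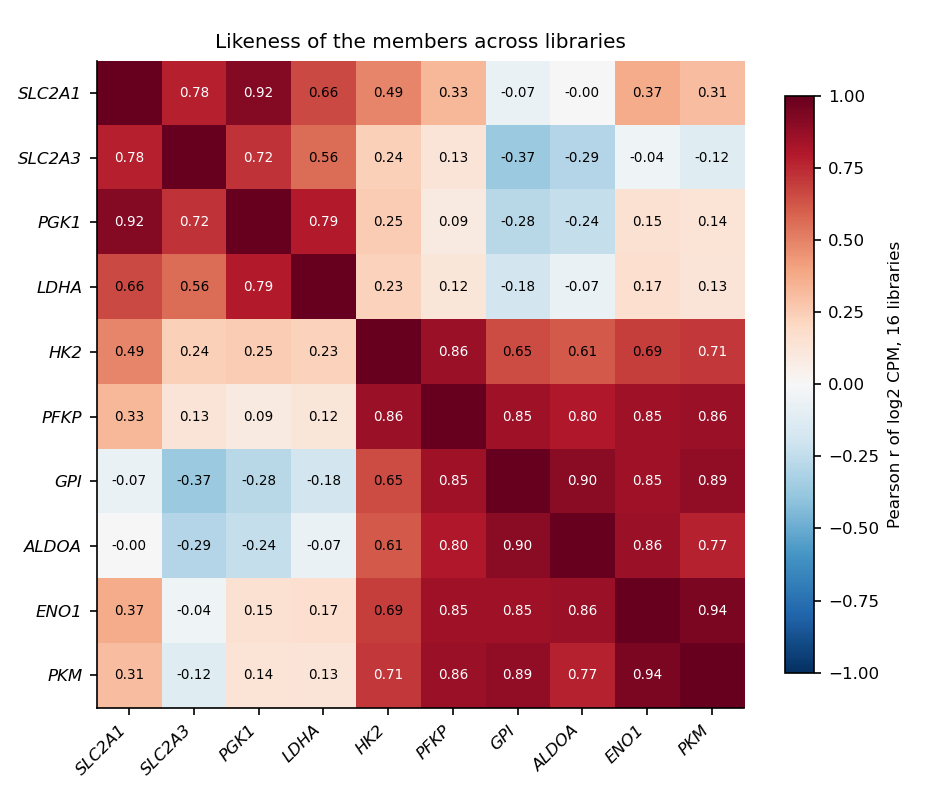
Pearson r between members over 16 libraries, from log2 CPM; rows and columns are members. SLC2A1, SLC2A3, PGK1 and LDHA form a block of 0.56 to 0.92 and the other 6 a block of 0.61 to 0.94.

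Other genes of the pathway were taken from 7 lists, 132 genes of which 111 were tested. With JQ1 24 of them were called, with pinometostat 5 and in E92K cells 0; EGLN3 stands in 2 lists. Over all genes 17.6% were called with JQ1 and 8.2% with pinometostat. The pinometostat count was 28 with only the 8 libraries of the comparison and 29 without JQ1 replicate 1 and E92K replicate 4. In those fits 4610 and 4782 of all genes were called, against 1419 in the fit of all libraries. Of 12 other glycolysis enzymes tested, JQ1 lowered BPGM, which makes 2,3-bisphosphoglycerate (-0.35 ± 0.12, adjusted p = 0.0486, edgeR), and none rose. GAPDH had 0.34 ± 0.15 (adjusted p = 0.119), TPI1 0.06 ± 0.10, PGAM1 -0.11 ± 0.24, LDHB -0.02 ± 0.14 and HK1 0.10 ± 0.13. Pinometostat lowered 1 of the 12, HK1, the constitutive hexokinase, by -0.57 ± 0.13 (adjusted p = 0.0151). With pinometostat 9 of these 12 had negative values, with a median of -0.22, among them GAPDH at -0.22 ± 0.15 and TPI1 at -0.22 ± 0.10, and LDHB was at -0.01 ± 0.14.

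Among 8 other genes of the SLC2A and SLC5A families tested, JQ1 raised SLC2A13 (0.76 ± 0.18) and SLC2A8 (0.58 ± 0.11) and lowered SLC2A12 (-0.64 ± 0.20). Pinometostat changed none. The 3 JQ1 calls stand against 17.6% of all genes called. Of 22 genes of lactate and pyruvate handling, 3 rose and 2 fell with JQ1, where 7.16% of all genes were called higher and 10.4% lower. MPC1, a subunit of the mitochondrial pyruvate carrier, rose by 0.46 ± 0.13 on the log2 scale, and PDP1, a phosphatase that activates pyruvate dehydrogenase, fell by 0.37 ± 0.11, while its regulatory subunit PDPR rose by 0.33 ± 0.11. Of 24 regulators of glycolytic flux, 1 rose and 4 fell with JQ1, against the same shares of all genes. The counts of these lists were not tested against those shares. ARRDC4, an arrestin-like relative of TXNIP, rose by 0.95 ± 0.13 (adjusted p = 6.12e-05, edgeR), and PPP1R3B, a glycogen-targeting subunit of protein phosphatase 1, had -2.10 ± 0.21 (adjusted p = 1.93e-06). PPP1R3D, another such subunit, had -0.64 ± 0.13, and EGLN1, a prolyl hydroxylase that marks hypoxia-inducible factors for decay, -0.40 ± 0.09. TXNIP, which restrains glucose uptake, had 0.63 ± 0.26 (adjusted p = 0.102), and HIF1A, a hypoxia-inducible factor subunit, -0.08 ± 0.22.

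Of 29 hypoxia response genes outside glycolysis, 8 fell and 1 rose with JQ1, where 10.4% of all genes were called lower and 7.16% higher. BHLHE41 (-1.81 ± 0.19), HILPDA (-0.85 ± 0.18) and INSIG2 (-0.71 ± 0.14) fell, and the histone demethylase gene KDM3A (0.53 ± 0.12) rose. With pinometostat 1 of the 29 was called: PLOD1, a collagen lysyl hydroxylase (-0.39 ± 0.10). Over all genes 8.2% were called there, 4.58% of them lower than with DMSO as a share of all genes tested. Among 6 gluconeogenesis genes, PC, the pyruvate carboxylase, had 0.47 ± 0.13 with JQ1 and -0.46 ± 0.13 with pinometostat. PCK2, the mitochondrial phosphoenolpyruvate carboxykinase, fell with pinometostat (-0.61 ± 0.13) and had 0.05 ± 0.13 with JQ1. Both comparisons share the control libraries. In E92K cells 0 of the 111 passed.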

How the data were processed

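Total RNA of 16 HEK293T samples was sequenced, and samples were grouped by their titles. Per the labels, a service provider made the libraries; the treatment text gives pinometostat in millimolar and the sample field in µM, which was used. For the aligner, read counter, strand setting and genome build nothing was given in the sources used here. Gene-level counts, whole numbers, were deposited by the authors and were identical in the per-library files and the series table (920000 of 920000 cells), and so were TPM values, which equal the counts divided by exonic length and scaled to a fixed sum. GENCODE release 29 (GRCh38) held 56898 of the gene identifiers, and 96.3% of these lay at identical coordinates, as did 5 of the 10 members.

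Genes were kept with filterByExpr (minimum count 10, minimum total 15), which left 17306, all 10 members among them. After TMM scaling, edgeR 4.0.16 (R 4.3.3) estimated 1 mean per group by quasi-likelihood from the counts of all 16 libraries, which left 12 residual degrees of freedom. Tests were two-sided. Their p-values were adjusted by Benjamini-Hochberg across the 17306 genes and called below 0.05. All groups share each gene's estimate of spread, so a library that stands apart enters every comparison. SE is the size of the log2 fold change divided by the square root of F. Intervals are 95%. No pair of libraries of a group matched within sampling noise (smallest chi-square per degree of freedom 3.54). Isoenzyme shares of TPM were compared with exact permutation tests. GC content is that of the longest GENCODE transcript. Promoters are RefSeq's (GRCh38.p14).

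The members and lists were chosen with earlier results of these data known. Named were all members, up to 4 called genes per list and comparison with a mean of at least 5 CPM, GAPDH, TPI1, PGAM1, LDHB, HK1, HIF1A and TXNIP, and the 5 genes most like the members' mean. The result of 1 listed gene is not reported here. Alternatives used DESeq2 1.42.0, limma 3.58.1 (voom, and log2 of TPM plus 1 or 0.1), other scalings, filters, thresholds and sets of libraries. Figures used matplotlib 3.10.9 in Python 3.11.15.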

Additional observations from a re-analysis of the deposited data

How the results depend on the processing

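With JQ1, SLC2A3 was lower and called in 26 of 26 alternatives (log2 fold change -1.54 to -1.10). With pinometostat GPI was called in 23 of 25 and PFKP in 22, but ALDOA in 15, PKM in 13 and ENO1 in 11, and all 5 stayed negative in every one. In E92K cells 0 members were called in 26 of 26. The members called with pinometostat, 5 in all, were 3 with upper quartile scaling, 3 with no filter on low counts, 1 in limma on log2(TPM + 1) and 1 on log2(TPM + 0.1) (ALDOA), 1 at a threshold of 0.01 (GPI), 2 with the GC trend removed, and 2 to 4 when a library of the comparison was left out. With JQ1, DESeq2 called 2 members, GPI being the second. The cause of these changes was not tested.

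Same-numbered libraries showed no shared deviation (correlations from -0.21 to 0.15), and the main fit did not treat them as pairs. With 4 libraries a group such values cannot exclude a pairing. A fit with a replicate block called 1 member with JQ1, 2 with pinometostat and 0 in E92K cells, and 3 of the other pathway genes with pinometostat against 5. Those pathway genes were 14 with DESeq2, 1 at a threshold of 0.01, 28 with only the 8 libraries of both groups, 29 without JQ1 replicate 1 and E92K replicate 4, and 1 to 7 when a library was left out. Among alternatives chosen after seeing the data, they were 25 without the 3 libraries shown apart and 27 with the mitochondrial share as a covariate. With JQ1 they were 12, against 24, on both TPM scales and at a threshold of 0.01, and 16 to 24 when a library was left out. Over all genes the calls ran from 182 to 4794 with pinometostat (1419). They ran from 1560 to 4559 with JQ1 (3044) and from 0 to 4 in E92K cells (0). For pinometostat DESeq2 called 2434 genes, and the fit of only the 8 libraries of both groups 4610. Without JQ1 replicate 1 and E92K replicate 4 the calls over all genes were 4782. Without the 3 libraries shown apart they were 3613, and with the mitochondrial share as a covariate 4794. Of the JQ1 calls 40.7% were higher, but 14.3% with library size alone, 27.4% with upper quartile scaling, 17.4% without mitochondrial counts and 8.77% on log2(TPM + 1); with pinometostat 44.1% were, but 32.6%, 57.2%, 35.9% and 15.1%.

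Sign changed in 36 of 1040 alternatives for members, none of them called. With JQ1, library size alone gave ALDOA -0.02, ENO1 -0.11 and PKM -0.01, and library sizes without mitochondrial counts gave ENO1 -0.07. Both TPM scales gave GPI -0.08, ALDOA -0.12, ENO1 -0.23 and PKM -0.14. PGK1 became 0.03 without the 2 or the 3 libraries shown apart, 0.02 without JQ1 replicate 1 and 0.00 with the mitochondrial covariate; HK2 became 0.07 and PFKP 0.01 without control replicate 1, and LDHA 0.00 without control replicate 3 and 0.01 with the GC trend removed. With 1 library left out in turn, HK2 ran from -0.15 to 0.07, PFKP from -0.14 to 0.01, PGK1 from -0.19 to 0.02 and LDHA from -0.10 to 0.00. With pinometostat both TPM scales gave PGK1 -0.03 and LDHA -0.08, and GC removal -0.00 and -0.03. In E92K cells LDHA became -0.01 with library size alone, -0.09 on both TPM scales, -0.01 and -0.03 without control replicates 1 and 2, -0.06 without E92K replicate 2 (-0.06 to 0.08 with 1 library left out in turn) and -0.02 with GC removal. Between E92K and JQ1, PGK1 became 0.08 with library size alone and 0.04 with upper quartile scaling; between E92K and pinometostat, LDHA became 0.02 without the 2 libraries. Depth was ample for these genes: the lowest count of SLC2A3, the lowest member, was 96.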
